A study of Mus musculus with 4 samples.

Results

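The genes described here encode 8 transcription factors of the myeloid lineage: Spi1, Cebpa, Cebpb, Cebpd, Cebpe, Irf8, Gfi1 and Klf4. They were taken by symbol from a RefSeq gene table of the assembly GRCm38.p6, whose chromosome coordinates are those of the mm10 peak files, and they are 8 of its 21887 protein-coding genes on chromosomes 1 to 19, X and Y. All peaks that overlapped each gene or its 50 kb flanks were collected from 4 libraries, which gave 590 peaks. The assay was CUT&Tag, which cuts and tags DNA near an antibody's target with a tethered transposase, here with an antibody against Ruvbl2, an AAA+ ATPase found in chromatin remodelling complexes such as INO80 and in the TIP60 acetyltransferase complex. Haematopoietic stem cells (HSC, libraries HSC1 and HSC2) were sorted from the bone marrow of Nup214fl/+ mice as CD48-negative, CD150-positive LSK cells, which lack lineage markers and carry Sca-1 and c-Kit. Leukaemia stem cells (LSC, libraries LSC1 and LSC2) came from Nup214fl/+ mice with leukaemia driven by MLL-AF9 and were sorted as cells with c-Kit, CD16/32 and CD34 but without lineage markers or Sca-1. The cell type field of the labels reads haematopoietic stem cell for all 4 libraries, so the groups rest on the titles. Every library thus came from mice with 1 floxed and 1 wild-type Nup214 allele, with no Cre named in the labels, and the protocol, which speaks of HSC only, names 2000 to 5000 cells. The LSC gate is also that of normal granulocyte-monocyte progenitors, so leukaemia and maturation cannot be told apart between the groups. No ages are given, and nothing in the labels says whether both libraries of a group came from separate animals.

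PU.1, the product of Spi1, is an ETS factor that opens myeloid enhancers and sets the choice between macrophage, granulocyte and lymphoid fates by its dose. C/EBP alpha, from Cebpa, is needed to make granulocyte-monocyte progenitors from earlier cells, C/EBP beta serves emergency granulopoiesis and macrophages, C/EBP delta responds to inflammation, and C/EBP epsilon drives the last steps of neutrophil maturation. IRF8 directs monocyte and dendritic cell fate, GFI1 is a repressor that favours neutrophils and restrains stem cell proliferation, and KLF4 promotes monocytes. MLL-AF9 leukaemia depends on a myeloid programme in which PU.1 and C/EBP alpha take part, and the distal enhancers of these genes are among the best-studied regulatory elements in blood.

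The deposited lists held 161655 (HSC1), 286107 (HSC2), 216077 (LSC1) and 210541 (LSC2) peaks, and values below are in this order of libraries unless named. The lists do not give how many reads were sequenced, and depth is therefore unknown. For equal terms, peaks were ranked in each library by the deposited −log10 p, and the 20000 strongest with ties (20004 to 20316 per library) are called listed. The libraries stood apart by replicate number: Y chromosome peaks numbered 1468 in HSC1 and 2015 in LSC1 but 16 in HSC2 and 26 in LSC2, and listed peaks had a median width of 482 and 371 bp in the former pair and 712 and 633 bp in the latter. The part of this difference in the results below was not tested. Gene ends of HSC markers (Hlf, Procr, Fgd5, Mecom, Slamf1, Ly6a, Mllt3) were listed in 0 of 7 cases in every library, and Hlf and Fgd5 carried no peak there at all. Genes of the LSC gate and of granulocyte-monocyte progenitors were listed in 3, 5, 3 and 4 of 8 cases. Of 4 B cell markers 0, 0, 0 and 1 were listed, of 3 T cell markers 0, 1, 0 and 0, of 3 erythroid markers 0, 1, 1 and 0, and of 3 markers of stroma and endothelium none in any library. Among all coding genes 10.6%, 25.2%, 11.0% and 25.7% were listed at a gene end. Peaks are not expression, and a control library made without this antibody was not analysed here, so the peaks below are not shown to depend on Ruvbl2.

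At their own ends, defined as 1000 bp on each side of the annotated start and end, HSC1 had 3 of the 8 genes listed, HSC2 4, LSC1 3 and LSC2 4. Among all protein-coding genes the shares were 10.6%, 25.2%, 11.0% and 25.7%. Spi1 was the only 1 of the 8 that was listed in all 4 libraries, a class that held 2.91% of coding genes. Irf8 alone was listed at its ends in no library, and 7 of the 8 were listed in at least 1, beside 40.1% of coding genes. With peaks of any strength counted, 5, 8, 6 and 7 of the 8 had a gene-end peak, beside 38.2%, 64.5%, 47.6% and 58.8% of coding genes. Spi1, Cebpd and Klf4 then had one in every library, which was the case for 15.6% of coding genes. For Klf4 the strongest lay at the 3′ end in HSC1 and LSC1 and at the start in HSC2 and LSC2. None of the 8 was listed in LSC1 and LSC2 but no HSC library, a class of 0.927% of coding genes, or in HSC1 and HSC2 but no LSC library, a class of 0.886%.

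**Figure D1:**
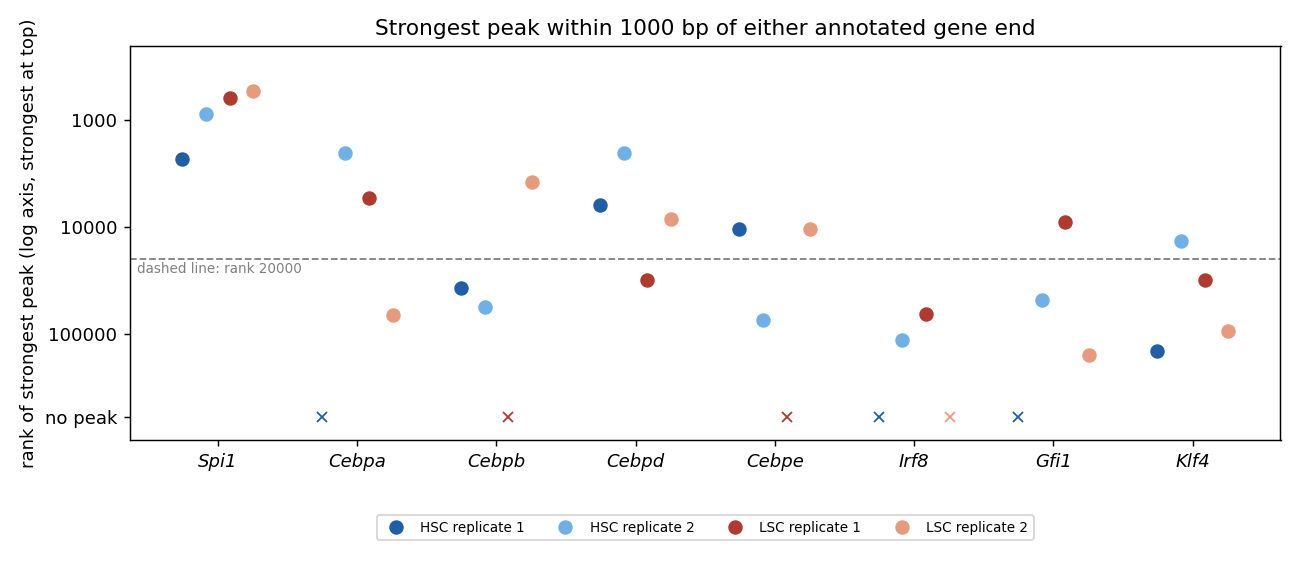
Rank of the strongest peak within 1000 bp of either end of each gene, on a log axis with the strongest at the top, in 2 HSC libraries (blues) and 2 LSC libraries (reds). Crosses mark libraries with no peak there and the dashed line is rank 20000. All 4 points of Spi1 lie above the line, those of Irf8 all lie below it, and the other genes have points on both sides.

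Spi1 carried the strongest gene-end site. RefSeq gives it 4 transcripts within chromosome 2, 91082374 to 91115759, an interval of 33.4 kb. That interval is longer than the classical gene, because it takes in transcripts that begin far upstream of the classical promoter, close to where the upstream regulatory element (URE) that sets PU.1 dose in blood cells has been described. The table gives no transcript starts and the borders of the URE are not in the sources used here, so distances below are from the start of the interval. The main peak at that start ran from 91082082 to 91084101 in HSC1, with a summit 1198 bp into the interval, rank 2317 and a fold of 49.7. The fold is the authors' ratio of the summit pileup to the background of the same library. In HSC2 it ran from 91082327 to 91083875, with its summit at 935 bp, rank 869 and fold 34.4. The peak of LSC1 ran from 91082586 to 91083665, with its summit at 855 bp, rank 616 and fold 104. That of LSC2 ran from 91082207 to 91083749, with its summit at 857 bp, rank 528 and fold 63.1. Summits of 3 libraries, both LSC and HSC2, thus lay within 80 bp of each other, and that of HSC1 widened the span to 343 bp. Both LSC ranks were better than both HSC ranks, although ranks of only 2 libraries a group allow no test that could pass. These peaks were wide for their libraries: only 0.236% of the listed peaks of HSC1, 9.97% of HSC2, 2.29% of LSC1 and 7.40% of LSC2 were as wide or wider. Ordered by the worst of its 4 ranks, Spi1 was number 91 among the 3413 coding genes with a gene-end peak in every library.

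A neighbouring peak inside the interval was also listed in every library. Its summit lay 2.13 kb from the start in HSC1, 2.11 kb in HSC2, 1.91 kb in LSC1 and 2.15 kb in LSC2, with folds of 39.9, 19.7, 59.1 and 23.7 and ranks of 5466, 3847, 4986 and 7375. The 3 closest summits spanned 41 bp and all 4 spanned 238 bp. The HSC2 peak was 2482 bp wide and also overlapped listed peaks of HSC1 at 3.17 kb (rank 1764, the strongest of HSC1 in the window) and of LSC2 at 2.91 kb. Farther in, fewer listed peaks were shared. HSC1 had listed peaks at 6.76, 25.89 and 29.80 kb. HSC2 had a single further listed peak, at 5.72 kb (rank 2290), and LSC1 had none. LSC2 had listed peaks at 12.86, 16.11, 24.95 and 31.61 kb, of which the peak at 16.11 kb was 2232 bp wide and ranked 2529. The peak at 31.61 kb (rank 2695) was overlapped by one of HSC2 just past the limit, at rank 20248. Listed peaks near 25 kb in HSC1 and LSC2 overlapped, while no peak of any strength lay there in the other libraries. Introns and exons cannot be separated with this table, so these are given as gene body. The classical promoter, which lies inside the interval at a place not given here, falls in that class too.

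**Figure D2:**
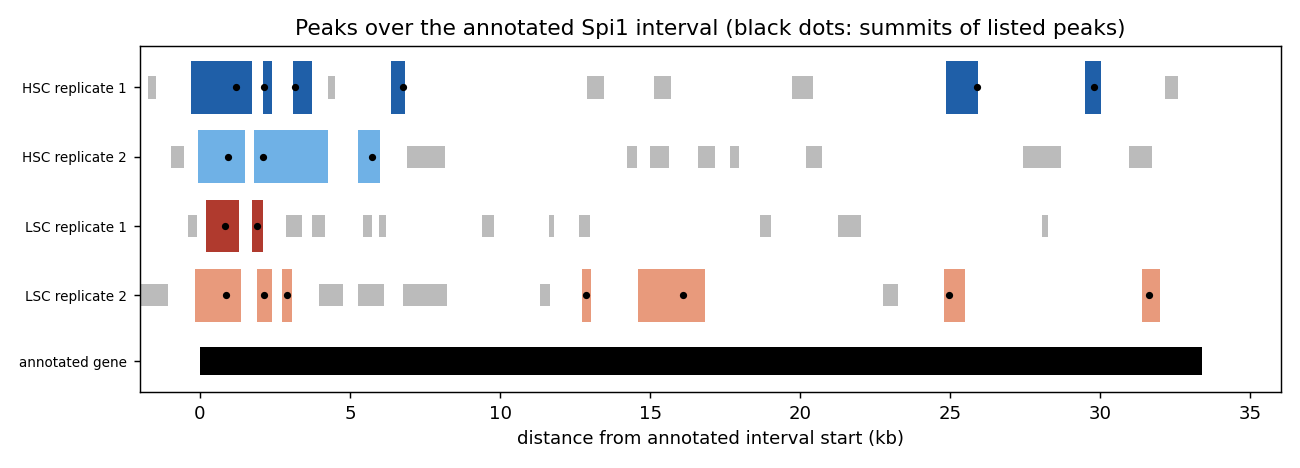
Peaks over the annotated Spi1 interval by distance from its start in kb, 1 lane per library. Coloured boxes are listed peaks with their summits as black dots, and short grey boxes are weaker peaks. Listed peaks stack in all 4 lanes at about 0.9 kb and 2.1 kb, and those farther into the gene differ from lane to lane.

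The C/EBP genes are short and have no introns or few, so a gene-end window covers most or all of each. Promoters of 300 bases, 250 before and 50 after a start, were available from RefSeq (GRCm38.p6) for 5 of the 8 genes: Cebpa, Cebpb, Irf8, Gfi1 and Klf4. Those of Cebpa and Cebpb are shown because a listed peak reached into each, with matches to the searched motifs in capitals. The Cebpa promoter lies on the plus strand at chr7:35119043-35119342 and that of Cebpb on the plus strand at chr2:167688665-167688964.
Cebpa promoter: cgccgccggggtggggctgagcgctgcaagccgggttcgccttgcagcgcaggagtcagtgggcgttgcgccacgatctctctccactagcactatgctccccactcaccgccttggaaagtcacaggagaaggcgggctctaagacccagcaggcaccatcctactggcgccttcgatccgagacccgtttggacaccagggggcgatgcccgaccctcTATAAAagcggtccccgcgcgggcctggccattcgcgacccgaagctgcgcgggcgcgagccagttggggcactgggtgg
Cebpb promoter: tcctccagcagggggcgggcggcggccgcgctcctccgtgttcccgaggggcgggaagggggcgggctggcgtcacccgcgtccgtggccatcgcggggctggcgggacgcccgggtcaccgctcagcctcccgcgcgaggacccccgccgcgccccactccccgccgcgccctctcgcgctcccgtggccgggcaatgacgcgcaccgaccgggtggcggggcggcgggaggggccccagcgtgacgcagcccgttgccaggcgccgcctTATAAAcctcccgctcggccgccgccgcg
In both, the only match among 7 motifs was TATAAA, at base 221 in Cebpa and base 272 in Cebpb, counted from 1 at the 5′ end. The motifs, searched on both strands, were GAGGAAGT for PU.1, TTGCNNAA for C/EBP, AAATCAC for GFI1, CCACACCC for KLF, the IRF element (GAAA and GAAA with 2 bases between), TATAAA and CCAAT, and no match overlapped another. Of 32851 RefSeq promoters of the same length, 13.6% hold TATAAA, 37.4% CCAAT, 10.8% the C/EBP letters and 3.20% each the PU.1 and GFI1 letters, with 3.56% for KLF and 3.44% for IRF. The share of G and C was 67.3% in Cebpa and 80.7% in Cebpb.

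Cebpa (chromosome 7, 35119293 to 35121928, plus strand) had a listed peak at its start in HSC2 and LSC1 and in neither of the other libraries, a pattern found at 0.841% of coding genes. In HSC2 it ran from 35118058 to 35119270, with its summit 335 bp upstream of the start, rank 2023 and fold 24.9, and it covered 228 bases of the promoter shown. LSC1 had 2 listed peaks there, at ranks 5306 and 6947 with folds of 57.5 and 50.0, of which the weaker covered 155 bases of the promoter with its summit 5 bp upstream of the start. In LSC2 a peak covered all 300 bases but ranked 78294 (fold 10.2), and in HSC1 no peak of any strength lay at either end. The promoter of Cebpa was therefore marked strongly in 1 library of each cell type, weakly in 1 LSC library and not in 1 HSC library.

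Cebpb (chromosome 2, 167688915 to 167690432, plus strand) was listed at its start in LSC2 alone. That peak ran from 167687846 to 167688741, with its summit 614 bp upstream, rank 3787 and fold 29.6, and it covered 77 bases of the promoter. Weaker peaks lay at the start in HSC1 (rank 37351, fold 18.0) and HSC2 (rank 56567, fold 9.36), and LSC1 had none. Cebpb nevertheless had many listed peaks in its flanks, 5 and 8 in the HSC libraries and 3 and 7 in the LSC libraries. The strongest lay 22.5 kb downstream in LSC1 (167710964 to 167711463, rank 524, fold 109), where LSC2 had an overlapping listed peak (167709889 to 167711527, rank 5377, fold 26.3). No HSC peak of any strength overlapped the LSC1 peak. The LSC2 peak was overlapped in HSC by a peak of HSC2 only (167709854 to 167710452, summit at 21.10 kb, rank 47984, fold 9.92).

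Cebpd (chromosome 16, 15887286 to 15889545) came nearest to Spi1, with a peak at its start in every library. It ranked 6175 with a fold of 38.5 in HSC1, 2023 with 24.9 in HSC2, 31399 with 23.1 in LSC1 and 8446 with 22.9 in LSC2. The peak of HSC2, from 15886661 to 15888651, was 1991 bp wide and reached both end windows. Both HSC ranks were better than both LSC ranks, the opposite order to Spi1, and LSC2 lay close to HSC1. Summits were spread over 751 bp, from 246 bp upstream of the start to 505 bp inside the gene.

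Cebpe (chromosome 14, 54710363 to 54712174, minus strand) was listed at its start in HSC1 (54711997 to 54713127, rank 10352, fold 31.7) and at its 3′ end in LSC2 (54710061 to 54710474, rank 10516, fold 21.6). LSC2 also had a weaker peak at the start, at rank 29566 with a fold of 15.5. HSC2 had only a weak peak at the 3′ end (rank 74949, fold 8.23) and LSC1 had none at either end. The listed peaks of HSC1 and LSC2, close in rank, thus lay at opposite ends of the gene.

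The promoters of Irf8 and Gfi1 are printed because they hold letters of other factors of the set and yet carried no listed peak. That of Irf8 lies on the plus strand at chr8:120736108-120736407 and that of Gfi1 on the minus strand at chr5:107725756-107726055.
Irf8 promoter: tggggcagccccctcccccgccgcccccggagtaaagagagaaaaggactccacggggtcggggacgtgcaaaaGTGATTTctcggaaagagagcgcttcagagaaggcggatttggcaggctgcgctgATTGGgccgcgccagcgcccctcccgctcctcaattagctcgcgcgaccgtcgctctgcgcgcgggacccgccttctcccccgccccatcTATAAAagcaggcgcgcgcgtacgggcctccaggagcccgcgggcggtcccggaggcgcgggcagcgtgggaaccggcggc
Gfi1 promoter: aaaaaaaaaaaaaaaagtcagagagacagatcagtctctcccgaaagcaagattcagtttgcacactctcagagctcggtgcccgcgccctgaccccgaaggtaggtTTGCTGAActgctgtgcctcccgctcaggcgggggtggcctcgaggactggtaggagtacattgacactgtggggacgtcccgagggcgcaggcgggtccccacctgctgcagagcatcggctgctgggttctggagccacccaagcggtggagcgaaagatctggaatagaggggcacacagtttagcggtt
The capitals in Irf8 mark the GFI1 letters on the opposite strand at base 75, CCAAT on the opposite strand at base 130 and TATAAA at base 220. Those in Gfi1 mark the C/EBP letters at base 108. Weak peaks of HSC2 (rank 47984) and LSC2 (rank 159846) reached into the Gfi1 promoter. A match describes the sequence and is no evidence of binding. Each of these genes has a further RefSeq promoter, and neither of those held any of the 7 motifs, nor did the promoter of Klf4.

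Irf8 (chromosome 8, 120736358 to 120756694, plus strand) had no peak of any strength over the promoter printed above in any library. Its further promoter (120738389 to 120738688) was covered over all 300 bases by a weak peak of HSC2 (rank 103759, fold 6.92). At its gene ends Irf8 had only weak peaks. Near the 3′ end they ranked 115192 in HSC2 and 65724 in LSC1. Another lay 1049 bp upstream of the start in LSC1, at rank 85915. The listed peaks of Irf8 lay in the gene body and the flanks. A site 5.5 kb into the gene was listed in HSC2 (rank 2105, fold 24.5) and LSC2 (rank 6571, fold 24.6), with summits 12 bp apart, and an overlapping peak of LSC1 ranked 40629. Another site, 14.6 to 14.7 kb into the gene, was listed in both HSC libraries, at rank 10156 with a fold of 32.0 and rank 18013 with a fold of 12.9, with summits 108 bp apart. No LSC peak of any strength overlapped it (120750329 to 120751677).

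Gfi1 (chromosome 5, 107716655 to 107725805, minus strand) was listed at its start in LSC1 only, with a peak from 107726357 to 107727568, rank 8866 and fold 43.6. Its summit lay 1.10 kb upstream of the start, and all other libraries had a weaker peak beside it: HSC1 at 1.26 kb upstream (rank 97148, fold 11.5), HSC2 at 1.14 kb (rank 31416, fold 11.2) and LSC2 at 1.34 kb (rank 43143, fold 12.9). These 4 summits spanned 244 bp, and the limit was passed in a single library. How often coding genes have such close peaks of any strength in all 4 libraries was not counted. In the gene and its 50 kb flanks Gfi1 had 0 and 0 listed peaks in HSC and 3 and 2 in LSC. It was the only 1 of the 8 with a window listed in both LSC libraries and in no HSC library, a class of 2.32% of coding genes. The listed peaks of the LSC libraries did not overlap each other, and the strongest HSC peaks of the window, at ranks 22301 and 22846, lay just below the limit.

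Klf4 (chromosome 4, 55527137 to 55532475, minus strand) had the fewest peaks, 5, 11, 6 and 10 in the window. Only 1 was listed in HSC2, whose near edge reached the start window while its summit lay 1.59 kb inside the gene (55530791 to 55531710, rank 13637, fold 13.8), and 1 in LSC2, 8.67 kb upstream (rank 13362, fold 20.3). LSC1 had a peak at the 3′ end at rank 31399. No peak touched the RefSeq promoter of Klf4 in any library.

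**Figure D3:**
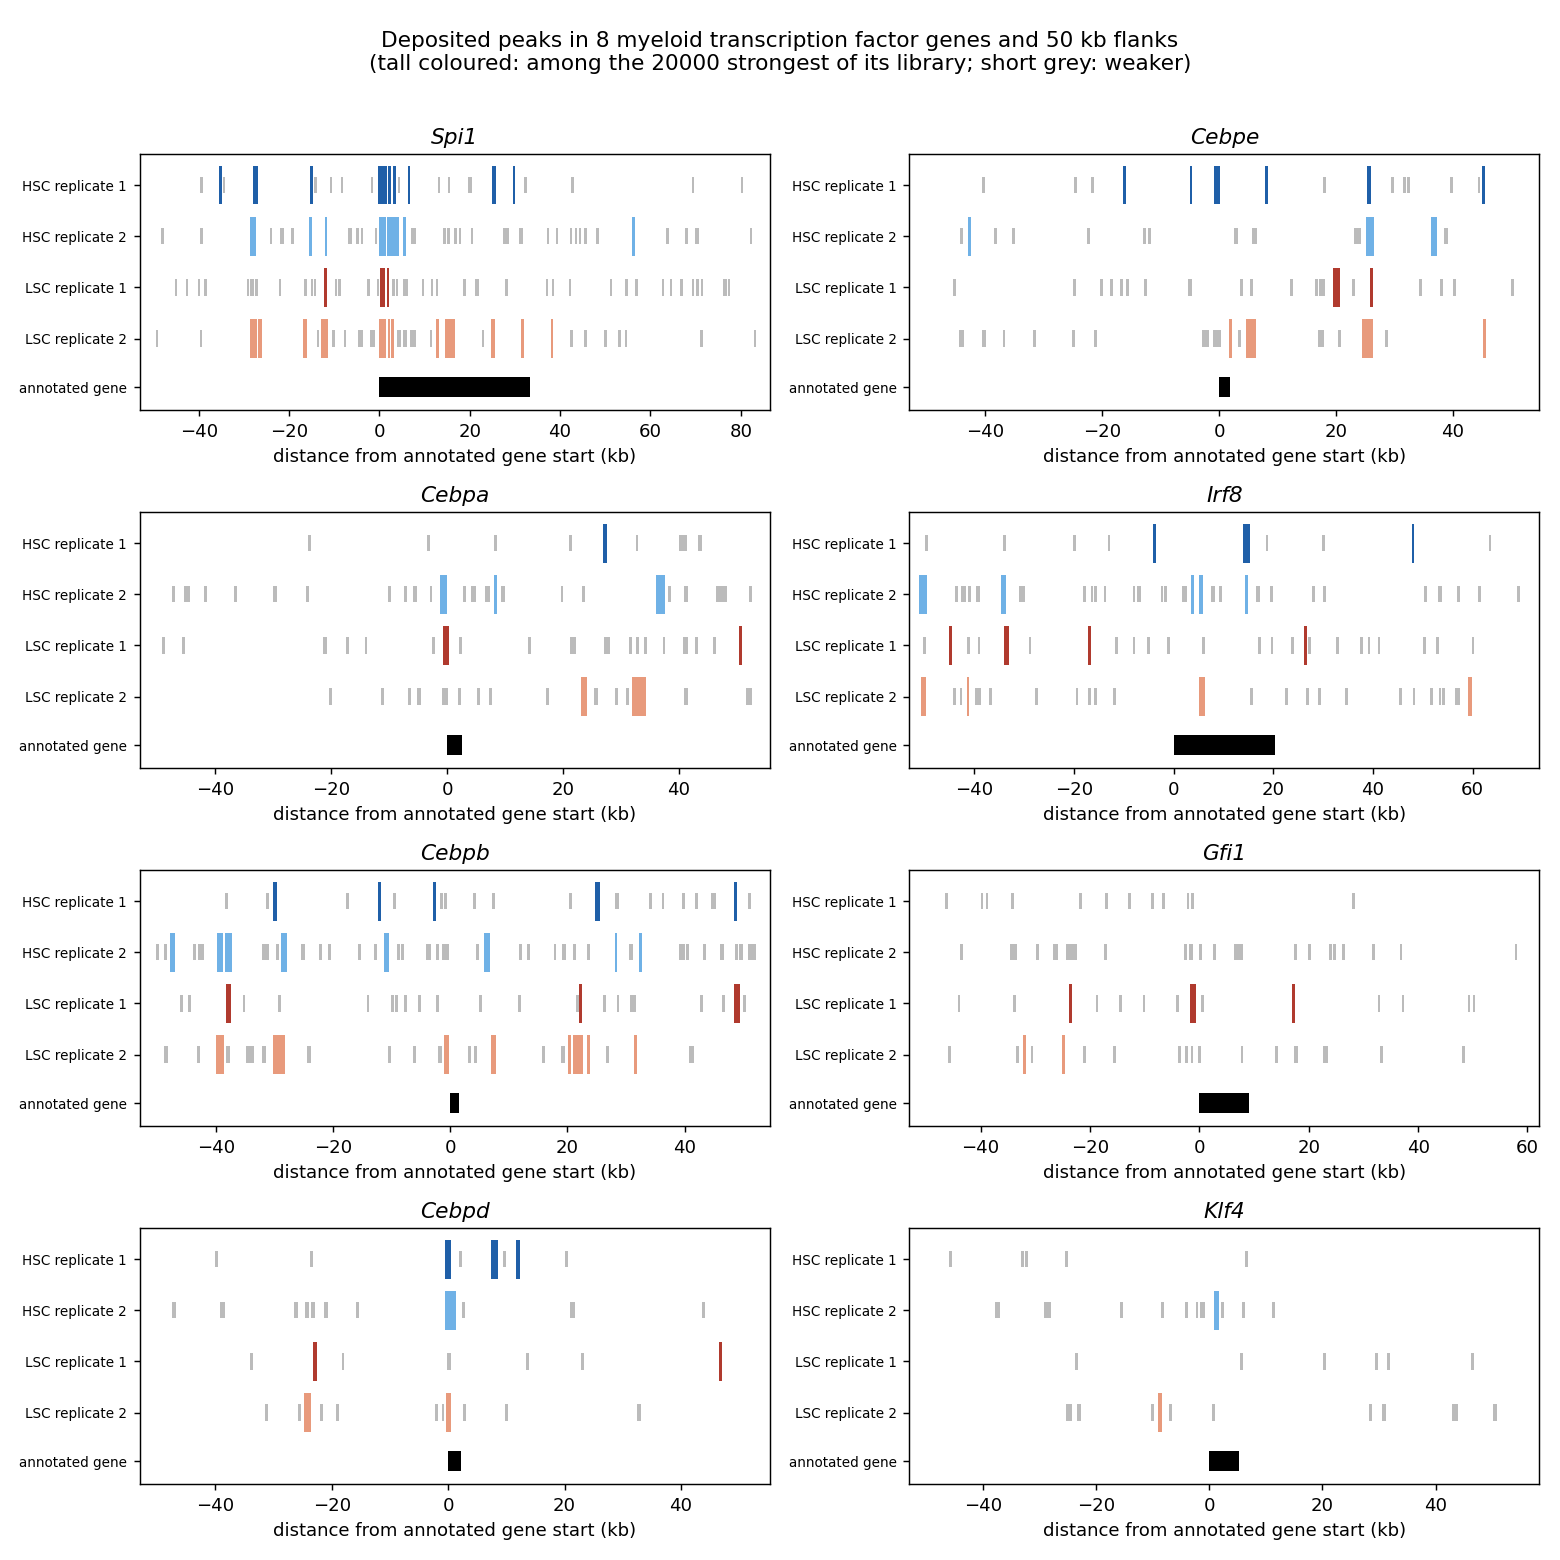
All deposited peaks in each of the 8 genes and its 50 kb flanks, by distance from the annotated start in the direction of transcription, in kb, with 1 lane per library and the annotated gene in black. Tall coloured bars are listed peaks and short grey bars are weaker ones. Spi1 and Cebpb carry the most listed peaks and Klf4 the fewest.

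Distal enhancers of 4 of these genes are known by their distance from the start, and peaks within 2 kb of each distance were read. The clearest was the Irf8 site 50 kb upstream, which had a peak in all 4 libraries. It ranked 3396 with a fold of 20.4 in HSC2, 1853 with 39.2 in LSC2, 21855 with 27.1 in LSC1 and 124036 with 8.75 in HSC1. Summits lay 49.65 to 50.70 kb upstream, and HSC2 and LSC2 ranked above HSC1 and LSC1. At that distance from the start, any peak was found for 27.9%, 48.4%, 37.8% and 38.5% of 17492 coding genes of known strand in HSC1 and HSC2 and LSC1 and LSC2, and a listed peak for 4.94%, 7.69%, 5.42% and 7.46%. The downstream Irf8 windows, whose sites serve dendritic cells and monocytes, held no listed peak in any library. At 32 kb peaks ranked 85548, 217272 and 176073 in both HSC libraries and LSC1. The HSC summits, at 30.06 and 30.31 kb, lay near the edge of that window. At 41 kb only LSC1 had a peak (rank 45676). At 56 kb HSC2 (rank 128846) and LSC2 (rank 23133, just past the limit) had one.

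The Cebpa enhancer 37 kb downstream, which drives the gene in myeloid progenitors, had a listed peak in HSC2 (35155331 to 35156823, summit at 36.35 kb, rank 7355, fold 16.3). At that distance 7.63% of coding genes of known strand had a listed peak in HSC2. In LSC1 it had a weak peak at 37.42 kb (rank 85915, fold 13.4). HSC1 and LSC2 had none in that window, though LSC2 had a listed peak of 2416 bp with its summit at 32.98 kb (rank 12360, fold 20.8). For Cebpe, whose enhancer lies 6 kb downstream, every library had a peak in the window. Summits lay at 8.04 kb in HSC1 (rank 7676, a peak that only touches the window), 6.01 kb in HSC2 (rank 94236), 5.54 kb in LSC1 (rank 67006) and 5.26 kb in LSC2 (rank 11900), so the listed ones again came from 1 library of each cell type. A listed peak at this distance was found for 5.44% of coding genes of known strand in HSC1 and 7.89% in LSC2. The Gfi1 window 35 kb upstream had a peak in all 4 libraries as well, all of them weak, with ranks from 50748 to 203352 and summits from 33.21 to 34.18 kb upstream. The LSC2 peak lay at the edge of that window and overlapped the peak of HSC2 but not those of HSC1 and LSC1. Across the 7 distances the share of coding genes with any peak at the same distance was 27.9% to 52.0% depending on library, so a single weak peak in such a window is common. The share with a peak there in all 4 libraries was not computed.

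Over the whole windows, the mean number of listed peaks was equal in both cell types. The 8 genes with their flanks held 27 and 28 listed peaks in HSC1 and HSC2 and 20 and 35 in LSC1 and LSC2, so the LSC values enclosed the HSC values. The means were 27.5 ± 0.707 (SD, n = 2) for HSC and 27.5 ± 10.6 (SD, n = 2) for LSC. Their difference was 0 (p = 1 by a two-sided exact permutation test, in which 2 libraries against 2 cannot give less than 0.333). At least 1 listed peak was found in the windows of 6, 7, 7 and 8 of the 8 genes, beside 69.9%, 73.1%, 71.1% and 72.6% of coding genes, and in all 4 libraries for 6 of the 8, beside 44.4%. No window was listed in both HSC libraries alone, where 2.43% of coding genes fell. Per 100 kb of gene and flanks, the median over the 8 genes was 2.71, 2.93, 2.50 and 2.64 listed peaks. Over all coding genes it was 0.905, 0.990, 0.937 and 0.987. The median window of the 8 held 1 other coding gene and that of all coding genes 3, but that of Spi1 held 5 and that of Klf4 0. The part of neighbouring genes in these densities was not tested. Spi1 had 6.75, 5.25, 2.25 and 9.0 per 100 kb and Cebpb 4.93, 7.88, 2.96 and 7.88, so LSC1 was the lowest library for both. Klf4 had 0, 0.949, 0 and 0.949.

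**Figure D4:**
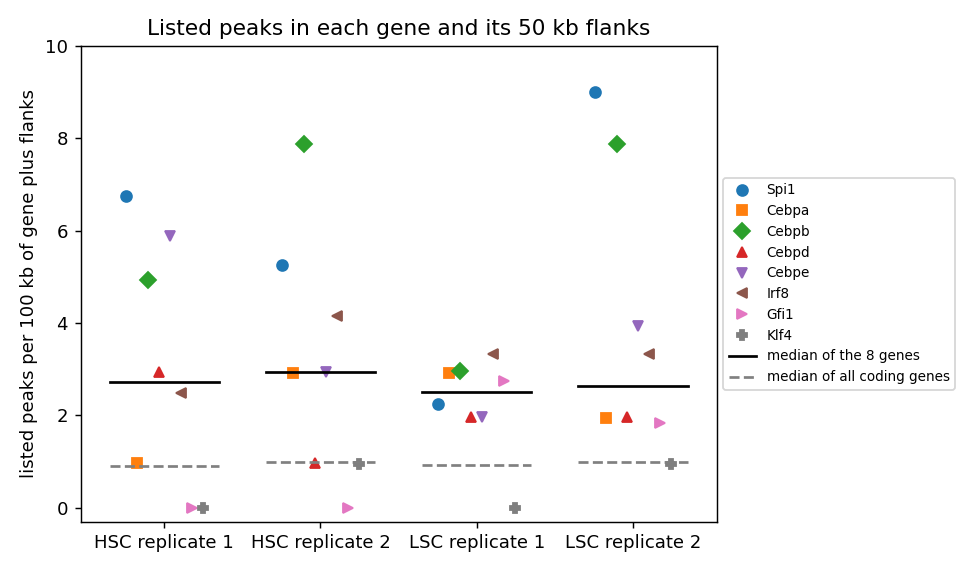
Listed peaks per 100 kb of each gene and its 50 kb flanks, 1 symbol per gene, in each of the 4 libraries. Black bars are medians of the 8 genes (2.50 to 2.93) and dashed bars medians of all coding genes (0.905 to 0.990). Gfi1 is at 0 in both HSC libraries and Klf4 at 0 in both replicate 1 libraries.

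By position, the 110 listed peaks of the 8 windows comprised 15 at the ends of these genes, 19 in their bodies, 15 in flanks at the end of another coding gene, 22 in flanks inside another coding gene and 39 in flanks between coding genes. Over the 4 libraries, 35.7% of the 42 peaks at the ends of the 8 genes were listed, 42.9% of the 35 at ends of neighbours and 12.7% of the 307 between coding genes. Gene body peaks were listed in 32.8% of 58 cases and peaks inside other coding genes in 14.9% of 148. Over the genome, 25.3% of peaks at the end of any coding gene were listed, 9.20% of those inside one and 7.36% of those between, so a higher share at ends was general. In the 8 genes the body share (32.8%) was close to the end share (35.7%), unlike the 9.20% and 25.3% over the genome. These shares pool the libraries and were not tested. In the 8 genes, all 19 listed body peaks lay in Spi1 or Irf8, the longest of the 8, and most of them in Spi1. The body class of Spi1 takes in its classical promoter and the listed peaks near 2.1 kb. LSC1 had 1 listed gene body peak, at Spi1, where the other libraries had 5 to 7.

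**Figure D5:**
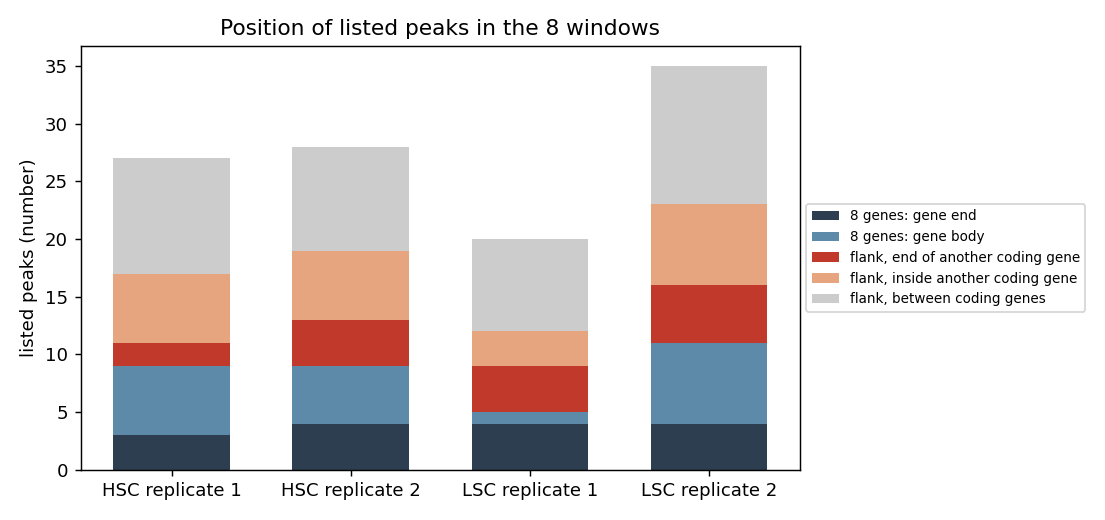
Number of listed peaks in the 8 windows by position, stacked for each library. The totals are 27, 28, 20 and 35, and LSC1 has 1 listed peak in gene bodies where the others have 5 to 7.

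Which sites were shared was asked by merging listed peaks that overlapped by at least 1 bp. The windows then held 77 regions, of which 59 (76.6%) were listed in a single library, 12 in 2, 4 in 3 and 2 in all 4. Over the genome 89.5% of 69593 regions were listed in a single library and 1.14% in all 4. The pair listed in all 4 were the start of the Spi1 interval (91082082 to 91086653, which joins both Spi1 sites above and further peaks beside them) and a region in the Cebpe window at the adjacent ends of Acin1 and 1700123O20Rik. Listed in both LSC and no HSC library was 1 region, the Cebpb site 21.8 kb downstream, beside 0.654% of regions over the genome. Both HSC libraries and no LSC library shared 2 regions, beside 0.805%: the Irf8 site 14.6 kb into the gene and a site 15.3 kb upstream of the Spi1 interval inside Slc39a13, a zinc transporter gene, where LSC1 had a weak peak (rank 84331). Pairs that mix the cell types gave 1 to 3 regions: 2 for HSC1 with LSC2 (0.726% over the genome), 3 for HSC2 with LSC1 (0.776%), 1 for both replicate 1 libraries (0.513%) and 3 for both replicate 2 libraries (3.62%). With 1 library left out the classes at gene ends took in other members: Klf4 became HSC-only without HSC1, without LSC1 Cebpb became LSC-only and Cebpd joined Spi1 as listed in every library, and without LSC2 Gfi1 became LSC-only and Cebpd HSC-only. Regions of the windows found in LSC alone numbered 22 without LSC1 and 11 without LSC2, and those in HSC alone 15 without HSC1 and 18 without HSC2, since a lone library then defined its cell type.

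Relatives and partners of the 8 factors were read in the same way at their gene ends. Of 62 such genes, 18 and 34 were listed in HSC1 and HSC2 (29.0% and 54.8%) and 18 and 25 in LSC1 and LSC2 (29.0% and 40.3%). Among all coding genes the shares were 10.6%, 25.2%, 11.0% and 25.7%. Of the 62, 7 (11.3%) were listed in all 4 libraries, beside 2.91% of all coding genes. The 3 further C/EBP genes were led by Ddit3, the stress-induced CHOP, at ranks 1565, 117, 1892 and 56 with folds of 53.8, 78.8, 81.4 and 152. Cebpg, a broadly expressed partner of the other C/EBP proteins, was listed in 3 libraries at ranks 777, 10522 and 468 and fell short in HSC1 at rank 23062. Among 8 GFI, KLF and SP genes, Sp1 (ranks 180, 50, 1137 and 46) and Klf13 (ranks 11791, 1177, 4928 and 1186) were listed in all 4, and 6, 6, 3 and 6 of the 8 in each library. Klf2 and Klf6, relatives of Klf4, were listed in every library but LSC1, where they ranked 71037 and 82762.

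Of 10 other ETS genes, 2, 3, 3 and 3 were listed, none in all 4 libraries, and Elf1 was the single gene of the 62 that was listed in both LSC (ranks 3033 and 11900) and in no HSC library (ranks 48850 and 37889), a class of 0.927% of coding genes. No gene of the 62 was listed in both HSC and no LSC library, where 0.886% of coding genes fell. The 7 other IRF genes were listed in 1, 5, 1 and 1 cases (14.3%, 71.4%, 14.3% and 14.3%), beside 10.6%, 25.2%, 11.0% and 25.7% of coding genes. Among 18 partners and regulators, Egr1, Fos and Nfe2 were listed in all 4, Nfe2, a megakaryocyte and erythroid factor, at ranks of 85, 2251, 1265 and 966. Of 16 targets, receptors and effectors, 5, 9, 4 and 5 were listed and only Ctsg, the granule protease cathepsin G, in all 4, at ranks 16634, 8003, 6191 and 2574. Spi1 with ranks from 528 to 2317 thus lay among the stronger of these genes, behind Sp1, Ddit3 and Nfe2 by their worst ranks.

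The pattern of Spi1 over the 4 libraries was set beside those of the other 636 coding genes listed at an end in all 4. By the mean absolute difference in log10 rank over the 4 libraries, the nearest were Ssu72 (0.131), Msh5 (0.144), Litaf (0.147), Mef2d (0.148) and Clcn2 (0.183). Ssu72, which encodes an RNA polymerase II phosphatase, ranked 2770, 979, 1215 and 667, and Mef2d, a MEF2 transcription factor, ranked 2450, 1033, 722 and 1396. The likeness is over 4 libraries only and says nothing of shared function.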

How the data were processed

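Ruvbl2 CUT&Tag was measured in 2 HSC and 2 LSC libraries, grouped by their titles. The labels' protocols give 17 to 20 PCR cycles and a goat anti-rabbit second antibody, and the host of the first antibody is not named. Per the submitters' processing notes, FastQC 0.11.5, Bowtie2 2.2.9, MACS2 and ChIPseeker were used with mm10. For MACS2 and ChIPseeker no version is recorded, and the calling threshold and handling of duplicates are unknown. Peaks were deposited per library. The deposited fold is the summit pileup as a ratio to that library's background, the deposited −log10 values are p and q of that enrichment, and the deposited score is about 10 times the −log10 q. Each belongs to its peak and was compared only inside 1 library.

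With Python 3.11.15 and pandas 2.3.3, the peaks of autosomes, X and Y were ranked by −log10 p, ties sharing the best rank. No list of artefact-prone regions was applied. Overlap meant at least 1 bp. Gene intervals and promoters came from RefSeq GRCm38.p6. Strand came from its promoter table and, for Spi1, Cebpd and Cebpe, from general knowledge. The fixed distance of the Spi1 enhancer was not read, since the table lacks the classical start. Named genes are the 8 factors, relatives listed in all 4 libraries or in 1 cell type alone, the 5 genes most like Spi1 and neighbours at regions listed in all 4. Klf2, Klf6, Cebpg and the neighbours and gene body sites beyond that were named after their values were seen. The members and lists were chosen with earlier results of these data known. The listing code was tested on simulated data. P-values place the observed difference among relabellings of these libraries, whose spread may be technical. Alternatives were other list lengths, ranking by fold, other windows and flanks, summits, each library left out and a replicate block.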

Additional observations from a re-analysis of the deposited data

How the results depend on the processing

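Ranking by fold changed none of the 7 counts and differences, but it was hardly a separate check. Fold and −log10 p went together within a library, as for peaks of the Cebpb and Cebpd windows in HSC1 (both fold 24.3 and rank 17012). Spi1 stayed the only gene listed at an end in all 4 libraries among the 10000 strongest peaks, and the number was 2 (with Cebpd) among the 40000 strongest, 3 (with Cebpd and Klf4) with all deposited peaks, and 0 when the summit had to lie in the window, since that of HSC1 lies 1198 bp from the start. Regions listed in all 4 libraries numbered 2 as reported, 1 with 10000 peaks, 4 with 40000, 13 with all, 1 with flanks of 20 kb, 4 with flanks of 100 kb and 1 with 200 bp around summits (the Spi1 site at 2.1 kb). LSC-only regions, 1 as reported, numbered 5 with 40000 peaks, 10 with all, 0 with 20 kb, 2 with 100 kb and 0 with 200 bp around summits. HSC-only regions, 2 as reported, numbered 1 with 10000 peaks, 10 with all, 3 with 100 kb and 1 with 200 bp around summits. The difference in listed peaks between LSC and HSC, 0 as reported, lay between −1.5 with 20 kb and 12 with all peaks. With a library left out it ranged from −7.5 to 7.5, genes listed in all libraries from 1 to 2, LSC-only genes from 0 to 1, HSC-only genes from 0 to 1, regions in all libraries from 2 to 6, LSC-only regions from 1 to 22 and HSC-only regions from 2 to 18. With the replicate block the difference was 0, from −7 at replicate 1 and 7 at replicate 2 (p = 1 by an exact sign-flip test, which cannot give less than 0.5). The labels do not say that a number pairs samples. Differences between replicates 1 and 2 in listed peaks per gene window correlated between HSC and LSC (Pearson's r = 0.387 across 21887 genes, which are not independent). Unknown depth limits all statements on absent peaks.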

Other observations

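The flanks of the 8 genes held strong sites at the ends of neighbouring genes. In the Cebpe window, the adjacent ends of Acin1, which encodes an apoptosis and splicing factor, and 1700123O20Rik carried a listed peak in every library (54685616 to 54687651 on chromosome 14), at ranks 3861, 157, 19449 and 250 and folds of 44.0, 70.4, 28.5 and 81.3 in HSC1, HSC2, LSC1 and LSC2. In HSC1, HSC2 and LSC2 it ranked above every peak at the ends of Cebpe itself, and LSC1 had none there. Beside Spi1, the end of the proteasome gene Psmc3 was listed in 3 libraries (ranks 7341, 7657 and 6759) and weaker in LSC1 (rank 47447). The end of Slc39a13 that faces Spi1 was listed in HSC2 (rank 735) and both LSC libraries (ranks 6365 and 3110), with no peak of any strength in HSC1. In the Cebpb window, an end of Tmem189 carried listed peaks in HSC2 (rank 3396) and LSC2 (rank 4206), and the wide LSC2 peak also overlapped peaks inside the gene in HSC1 (rank 17012) and LSC1 (rank 20849), which did not overlap each other or the HSC2 peak. These sites were noticed after their values were seen, and a peak between neighbours cannot be assigned to either gene.

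At Cebpd, both LSC libraries had listed peaks near the end of Mzt2, 22.6 and 23.8 kb upstream (ranks 3877 and 10953, folds 65.3 and 21.4), which did not overlap each other. HSC1 (rank 124036) and HSC2 (ranks 153783 and 240302) had weak peaks at the same sites. In the Gfi1 window the listed LSC peaks inside Evi5 lay 23.8 kb upstream in LSC1 (rank 10522), where a peak of HSC2 ranked 29421, and 24.7 and 32.1 kb upstream in LSC2 (ranks 5752 and 8739).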
